A study of Danio rerio with 40 samples.

Results

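The transcripts of 9 genes of the integrated stress response and the unfolded protein response were followed in zebrafish embryos and larvae kept in the vitamin D hormone 1α,25(OH)2D3 or in its ethanol vehicle. The genes are atf4b1 (chromosome 6), atf3 (20), trib3 (11), sesn2 (19), asns (19), xbp1 (5), hspa5 (5), pdia4 (24) and pdia3 (25). They were chosen by name, as the rows of the gene count table whose symbol is one of the 9, and each name matched 1 of the 14267 genes. The choice was made with earlier results of these data known. Shares of all genes given below are therefore a background and not a test of the set. RefSeq now lists atf4b1 under the symbol atf4a.

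All animals were offspring of Segrest wild-type fish and all groups, vehicle included, grew in medium with the pigment blocker 1-phenyl-2-thiourea at 0.003%. Hormone at 300 pM, or ethanol alone, was added at 24 h post fertilization and renewed at intervals of 24 h, and animals were frozen at 2, 4, 6 or 7 days post fertilization (dpf). Both treatments were sampled at each age, which gives 8 groups of 5 libraries and 40 libraries in all. Each library came from poly-A RNA of a set of 25 to 30 whole animals, so that a value is a mean over animals and over tissues. Fewer cells of a type and less RNA per cell cannot be told apart in such material. The labels also describe an experiment in which larvae were exposed for 24 h from 6 dpf, without saying whether any library belongs to it, so the length of exposure of the 7 dpf libraries is not certain.

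The integrated stress response is a programme that cells start when protein synthesis is slowed by phosphorylation of the initiation factor eIF2, for example under amino acid shortage or misfolded protein. Translation of the transcription factor ATF4 then goes up, and ATF4 raises transcription of genes for amino acid synthesis and for feedback control. The unfolded protein response is the programme of the endoplasmic reticulum. Its sensors PERK, IRE1 and ATF6 respond to unfolded protein, PERK by phosphorylating eIF2, IRE1 by splicing xbp1 transcripts, and ATF6 by releasing a transcription factor for chaperone genes. Secretory tissues such as exocrine pancreas and liver hold high levels of endoplasmic reticulum chaperones. ATF4 and XBP1 are controlled largely after transcription, so transcript levels describe only part of either programme.

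Total counts per library ranged from 67235165 to 214502251, and 13538 to 13931 genes had at least 1 count. Each group holds 1 library of clearly lower depth, replicate 1 in vehicle groups and replicate 5 in treated groups. These 8 libraries had at most 81298182 counts, and the other 32 had at least 106850887. The other 4 libraries of most groups fell into 2 pairs whose counts were closer within than between pairs. In treated larvae at 2 dpf, for example, the chi-square per degree of freedom was 29.9 and 40 within pairs against 265 to 299 across them. The labels do not say what a pair shares, nor whether the 5 libraries came from separate sets of animals. The p-values below measure only the spread between these libraries, and would be too small if fewer than 5 sets lie behind a group. Levels are given as CPM, counts scaled to a common library size, with TMM scaling over the 40 libraries, a gene is called changed at a Benjamini-Hochberg adjusted p under 0.05 over all genes tested in edgeR's quasi-likelihood test, and log2 fold changes are ± SE. All 9 genes passed the filter on low counts in every comparison.

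**Figure D1:**
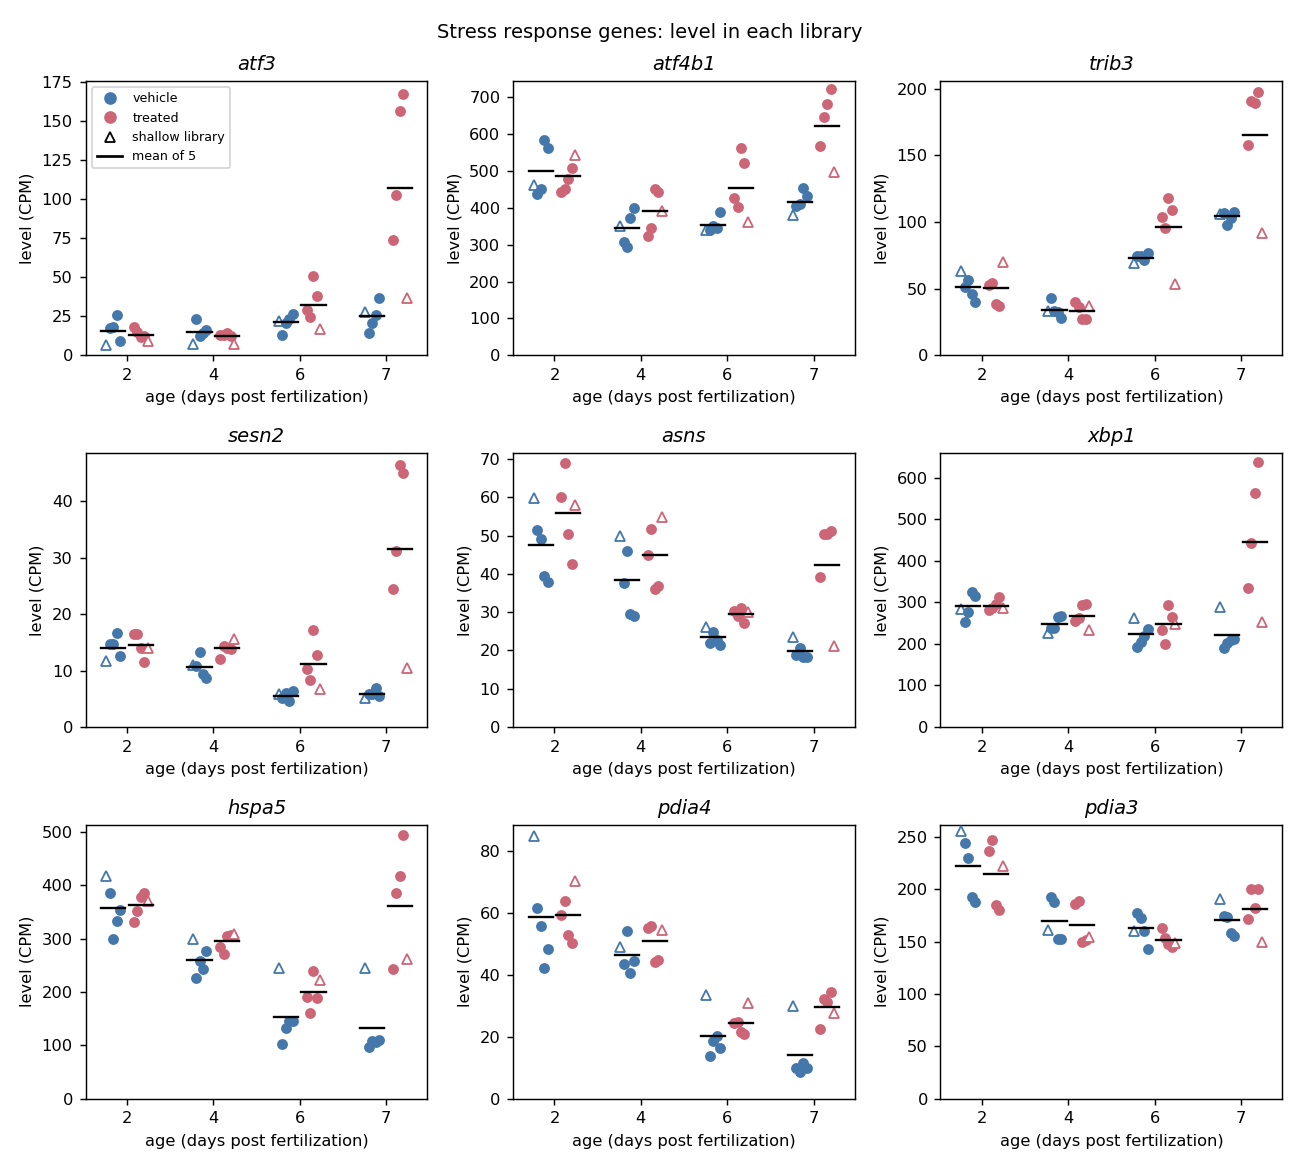
Level of each of the 9 genes in CPM in every library, by age in dpf, for vehicle and treated groups, with a line at the mean of 5 libraries and open triangles for the shallow library of each group. At 7 dpf the treated mean is above the vehicle mean in each panel, with fold changes in edgeR's fit from 5.44 for sesn2 to 1.07 for pdia3. The vehicle triangle of hspa5 (244 CPM) and pdia4 (30.1 CPM) stands above the other 4 vehicle libraries at that age.

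At 2 dpf, after the first day in hormone, no member changed. Ratios of treated to vehicle ran from 0.86 for atf3 to 1.18 for asns, the adjusted p was 1 for each gene, and 0 of 9 had an unadjusted p under 0.05. DESeq2 and limma voom called 0 of 9 as well. Of all genes tested at that age, 0.00757% were called, which is 1 gene of 13203. The groups of all 9 members overlapped.

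At 4 dpf again no member changed in the comparison of the 5 treated with the 5 vehicle libraries, and again DESeq2 and voom called 0 of 9. The background was 0% (0 of 13410 genes in edgeR). The smallest p among the members was that of sesn2, whose product belongs to the sestrins, stress-induced proteins that restrain mTORC1 in mammals. Its levels were 10.9, 10.8, 13.2, 9.35 and 8.61 CPM in vehicle libraries and 12.1, 14.3, 14, 13.8 and 15.7 CPM in treated libraries. The groups overlapped only in that 1 vehicle library stood above the lowest treated one. The ratio was 1.33 with an unadjusted p of 0.00631 and an adjusted p of 0.474 in edgeR.

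The replicate numbers of the exon table differ from those of the gene table in the treated groups. Libraries with the same exon-table number deviated together at this age (r from 0.59 to 0.83). The same number was the best match for only 2 of 5 libraries, so these correlations do not establish the pairs. The layout by these numbers was the same in both treatments at 4 dpf. Number 1 was the shallow library, and numbers 2 with 3 and 4 with 5 were the closer pairs. With the exon-table numbers as a replicate block, 4 of 9 members passed at 4 dpf, all higher in treated larvae. Of all genes, 5.15% were higher in that fit and 9.27% were called in either direction, against 0% without the block. The 4 members were asns (log2 fold change 0.25, adjusted p 0.00948), sesn2 (0.41, 0.0138), atf4b1 (0.19, 0.0156) and hspa5 (0.19, 0.0339). The treated library exceeded its numbered vehicle partner in 5 of 5 pairs for each of these genes, by ratios of 1.08 to 1.6 for sesn2. The block works on the same pairs, so these ratios describe the calls and are not separate evidence. xbp1 and pdia4, which did not pass, also had 5 of 5 pairs above 1. The share of all genes with 5 of 5 pairs above 1 was not measured. At 2 dpf the same block gave 0 calls among the members.

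At 6 dpf sesn2 and asns rose and the other members did not pass. The members' count was 2 of 9 higher and 0 lower, against 4.37% of all genes higher and 6.32% lower. The median log2 fold change was 0.38 over the 9 genes and 0.02 over all genes. In vehicle larvae sesn2 stood at 5.81, 5.16, 6, 4.57 and 6.31 CPM, and in treated larvae at 10.3, 8.33, 17.3, 12.8 and 6.79 CPM. Every treated library was above every vehicle library, with the shallow treated library the lowest of its group. The log2 fold change of sesn2 was 1.01 ± 0.22, a 2.01-fold rise (adjusted p 0.012).

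For asns, asparagine synthetase and a target of ATF4 in mammals, vehicle levels were 26.1, 21.9, 24.8, 22.8 and 21.4 CPM. Treated levels were 30.3, 28.9, 31, 27.1 and 30 CPM. The groups did not overlap, so 2 of the 9 genes were apart at 6 dpf, beside 3.32% of all genes apart in that direction. The log2 fold change was 0.35 ± 0.08, 1.27-fold (adjusted p 0.0171). The call is narrow, since the adjusted p was 0.0535 without vehicle replicate 4, 0.056 without treated replicate 1, 0.0511 without treated replicate 3 and 0.262 in 1 fit of all 40 libraries.

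Among the transcription factors at 6 dpf, atf4b1 had 340, 341, 350, 346 and 389 CPM in vehicle and 426, 402, 563, 521 and 361 CPM in treated libraries. Only the shallow treated library overlapped the vehicle range. Its log2 fold change of 0.38 ± 0.12 missed the threshold (adjusted p 0.0564) and passed with the exon-table replicate block (0.0131). atf3, an ATF/CREB family factor that is induced quickly by many stresses, had a value of 0.61 ± 0.26 (0.176). trib3, a pseudokinase that restrains ATF4 in mammals, had 0.40 ± 0.17 (0.153).

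The endoplasmic reticulum genes at 6 dpf had log2 fold changes of 0.39 ± 0.21 for hspa5, 0.28 ± 0.22 for pdia4, 0.17 ± 0.12 for xbp1 and -0.09 ± 0.08 for pdia3. Their adjusted p-values ran from 0.275 to 0.545. Without the shallow library of each group, 7 of 9 members were higher at 6 dpf, all except xbp1 and pdia3, beside 12.1% of all genes. In that fit of 4 against 4 libraries, 6 of 9 members were apart, beside 13% of all genes. The exon-table block gave 3 calls, atf4b1 besides sesn2 and asns, beside 12.8% of all genes called higher.

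At 7 dpf, 8 of the 9 genes rose and pdia3 did not pass. The background was 14.6% of all genes higher and 14.2% lower, and the median log2 fold change was 1.09 over the 9 genes and 0.01 over all genes. The rise was steepest for sesn2 and atf3, intermediate for hspa5, asns, pdia4 and xbp1, and lowest among the called genes for trib3 and atf4b1. Taken from the 5 libraries of each group, 2 of 9 were apart, atf4b1 and sesn2, beside 8.16% of all genes. In the other 6 called genes the overlap came from a shallow library, the treated one, the vehicle one or both. With library size alone and no scaling factors, the median over all genes shifted to 0.178 at 7 dpf (0.135 at 6 dpf) on the log2 scale. Higher genes then made up 78.2% of the calls in place of 50.8% at 7 dpf, and 74% in place of 40.9% at 6 dpf. All 8 calls at 7 dpf held under each scaling tried.

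**Figure D2:**
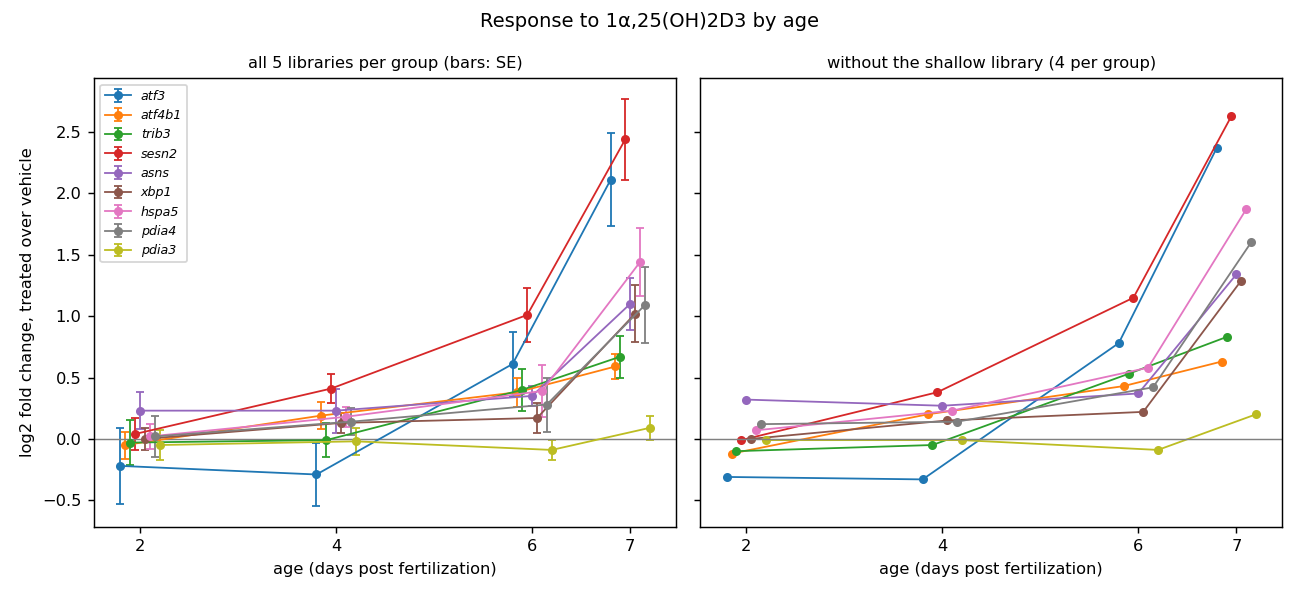
Log2 fold change of treated over vehicle (± SE) for each gene against age in dpf, from all 5 libraries per group on the left and without the shallow library of each group on the right. Values lie near 0 at 2 dpf and are highest at 7 dpf, where sesn2 reaches 2.44 and atf3 2.11 with all libraries and 2.63 and 2.37 without the shallow ones.

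Of the transcription factors, atf4b1, 1 of the zebrafish genes for ATF4, stood at 381, 405, 411, 455 and 432 CPM in 7 dpf vehicle libraries. In treated libraries it stood at 567, 647, 682, 723 and 496 CPM. All treated libraries were above all vehicle libraries, and the fold change of 1.5 (log2 0.59 ± 0.10, adjusted p 0.00161) was the lowest of the 8 called genes. atf3 had 27.7, 14.3, 20.5, 25.5 and 36.7 CPM in vehicle and 73.4, 102, 156, 167 and 36.5 CPM in treated libraries. The shallow treated library lay just under the highest vehicle library and the other 4 lay above all of them. The rise of atf3 was 4.32-fold (log2 2.11 ± 0.38, adjusted p 0.00185).

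Of the ATF4 target genes, sesn2 had the largest fold change of the 9. Its vehicle libraries stood at 5.14, 5.77, 5.88, 6.83 and 5.51 CPM, and its treated libraries at 24.4, 31.3, 46.5, 45 and 10.4 CPM. Even the shallow treated library was above every vehicle library. The rise was 5.44-fold (log2 2.44 ± 0.33, adjusted p 0.000278). asns had 23.4, 18.9, 20.6, 18.2 and 18.2 CPM in vehicle and 39.3, 50.3, 50.3, 51.1 and 21.1 CPM in treated libraries, a rise of 2.15-fold (log2 1.1 ± 0.21, adjusted p 0.0024). For trib3 the values were 106, 107, 98, 103 and 108 CPM against 158, 191, 189, 197 and 91.4 CPM, a rise of 1.59-fold (log2 0.67 ± 0.17, adjusted p 0.0128). For both genes 4 treated libraries stood well above the vehicle range, and the shallow one was within it for asns and under it for trib3.

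In the endoplasmic reticulum arm, xbp1, which codes for the transcription factor made from the spliced transcript, had 288, 191, 202, 209 and 212 CPM in vehicle at 7 dpf. Treated libraries had 334, 442, 564, 637 and 252 CPM, a rise of 2.03-fold (log2 1.02 ± 0.23, adjusted p 0.006). The gene table gives no measure of splicing, so the spliced share was not analysed here. hspa5, the chaperone BiP, had 244, 96.4, 109, 107 and 111 CPM in vehicle and 243, 385, 418, 493 and 263 CPM in treated libraries. The 4 deeper vehicle libraries lay close together and far under all treated ones, while the shallow vehicle library was level with the lowest treated library. The rise of hspa5 was 2.71-fold (log2 1.44 ± 0.28, adjusted p 0.00313).

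pdia4 and pdia3 code for protein disulfide isomerases, which form and rearrange disulfide bonds in the endoplasmic reticulum, and they differed in their values. pdia4 had 30.1, 9.84, 8.8, 11.6 and 9.8 CPM in vehicle and 22.4, 32.4, 31.3, 34.6 and 27.9 CPM in treated libraries at 7 dpf. It rose by 2.13-fold (log2 1.09 ± 0.31, adjusted p 0.0226), with the shallow vehicle library inside the treated range. This was the only call of the 8 lost when single libraries were left out: the adjusted p was 0.0577 to 0.0704 without vehicle replicate 2, 3, 4 or 5 and 0.052 to 0.0585 without treated replicate 2, 3 or 4. Without vehicle replicate 1, the shallow library, it was 1.78e-05 at a log2 fold change of 1.58. pdia3 had 191, 175, 173, 158 and 155 CPM in vehicle and 172, 200, 183, 200 and 150 CPM in treated libraries. Its groups overlapped widely (log2 0.09 ± 0.10, adjusted p 0.501). The difference between the responses of pdia4 and pdia3 was not tested.

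The shallow libraries stood apart in the response at both late ages. When treated and vehicle libraries were set side by side by their exon-table numbers, the shallow pair had the lowest treated to vehicle ratio in 9 of 9 members at 7 dpf and in 8 of 9 at 6 dpf. Among all genes called higher, the shallow pair was the lowest in 1335 of 1962 at 7 dpf and 349 of 590 at 6 dpf, and over all genes in 36.9% and 29%. At 7 dpf the ratio for sesn2 was 2.03 in the shallow pair and 4.24 to 8.17 in the other 4. For hspa5 it was 1.07 against 2.52 to 4.47, for atf3 1.32 against 4.56 to 6.13, and for asns 0.899 against 2.08 to 2.82. In the other 4 pairs, every ratio at 7 dpf was above 1 for every member except 1 pair of pdia3 at 0.985.

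**Figure D3:**
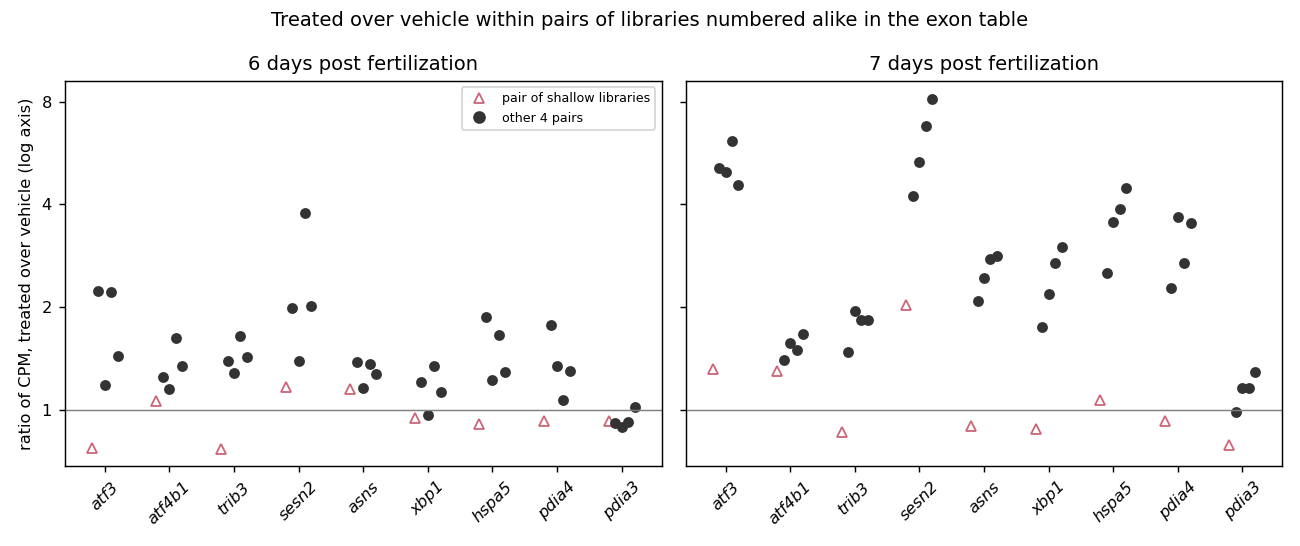
Ratio of treated to vehicle CPM (log axis) within pairs of libraries with the same exon-table number at 6 and 7 dpf, with the shallow pair marked. At 7 dpf the shallow pair is the lowest for each of the 9 genes, from 0.787 for pdia3 to 2.03 for sesn2.

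Without the shallow library of each group, all 9 members were higher at 7 dpf, pdia3 included (log2 0.20, adjusted p 0.0289), beside 28.6% of all genes. In that fit 8 of 9 were apart, all except pdia3, beside 25.5% of all genes. The log2 fold changes of the other 8 ran from 0.63 for atf4b1 to 2.63 for sesn2, and hspa5 reached 1.87, pdia4 1.60 and asns 1.34. What made the shallow libraries differ was not tested.

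The exon table named 11 exons of 5 of these genes, which gave the change in single stretches of the transcripts. 1 exon of atf3 was listed at 0 in every library. The other 10 were all higher in treated larvae at 7 dpf by the ratio of mean CPM, here without TMM scaling and with no test. The ratio was 6.02 in an exon of sesn2 of 184 bases, 4.92 in an exon of atf3 of 252 bases, and 3.45 and 3.17 in 2 exons of hspa5. For asns the ratios were 2.49 and 2.77, and for pdia4 they were 2.85, 1.66 and 1.77. Counts in the second sesn2 exon were low, 0 to 17 in vehicle and 2 to 88 in treated libraries.

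Whether the response differed between ages was asked in 1 model of all 40 libraries with the 3 interaction terms together. Older treated groups had also been longer in hormone, apart from the uncertainty at 7 dpf. Age and length of exposure therefore cannot be told apart here. 6 of 9 members passed, beside 7.79% of all genes. The adjusted p was 1.62e-05 for sesn2, 0.00186 for atf3, 0.00232 for hspa5, 0.00276 for xbp1, 0.0334 for asns and 0.0493 for atf4b1. trib3 (0.177), pdia4 (0.104) and pdia3 (0.945) did not pass. The count fell to 1 when replicate 3 was left out of all groups and to 1 without replicate 4, and it was 5, 4 and 7 without replicates 1, 2 and 5. These are label numbers, which do not match vehicle to treated libraries. Leaving out replicate 1 takes away the shallow vehicle libraries and deeper treated ones, and replicate 5 the reverse. Between 6 and 7 dpf alone, 1 member was called, sesn2, whose response was higher at 7 dpf by 1.44 on the log2 scale (adjusted p 0.0383), beside 0.22% of all genes called in that direction. That call was lost without replicate 1 (0.118), 2 (0.521), 3 (0.207) or 4 (0.459). Other members passed in some of the 15 alternatives, in the same direction. xbp1 (0.07 in the reported fit) passed in 7 of them, hspa5 (0.146) in 4, asns (0.291) and pdia4 (0.589) in 3 each, atf3 (0.295) in 2, and atf4b1 and trib3 in 1 each, while pdia3 passed in 0.

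In vehicle animals most of the 9 genes moved with age, and not in 1 direction. The exception was atf3, which passed in no step of the reported edgeR fits. Its adjusted p was 0.887 from 2 to 4 dpf, 0.145 from 4 to 6 dpf and 0.542 from 6 to 7 dpf. From 2 to 4 dpf, 6 of 9 fell, beside 30.2% of all genes. trib3 went from 51.3 ± 8.98 to 34.0 ± 5.55 CPM (mean ± SD, n = 5), a fall of 0.60 on the log2 scale (adjusted p 0.0029), and atf4b1 from 500 ± 69 to 344 ± 43.8 CPM, by 0.54 (0.00133). hspa5 fell by 0.46, sesn2 by 0.41 (adjusted p 0.0217), pdia3 by 0.39 and xbp1 by 0.24 (0.0357). The call of xbp1 was lost in 9 of 19 alternatives, among them single libraries left out (up to 0.0867), and that of sesn2 in 4 (up to 0.0574 with 1 library left out). Libraries with the same label number deviated together across these ages (r from 0.35 to 0.57). The same number was the best match for 4 of 5 libraries, so here too the pairs are not established. With the label numbers as a replicate block, asns (0.00242) and pdia4 (0.0349) fell as well, beside 35.1% of all genes. Without scaling factors only atf4b1 and trib3 still passed, and the median of all genes then stood at 0.205.

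From 4 to 6 dpf in vehicle, trib3 rose and 4 genes fell, beside 18.1% of all genes higher and 17.8% lower. trib3 went from 34.0 ± 5.55 to 73.3 ± 2.78 CPM, a rise of 2.15-fold (adjusted p 4.32e-05). Its groups did not overlap, beside 12.6% of all genes apart in that direction. pdia4 fell by 1.18 on the log2 scale (adjusted p 0.00119), sesn2 by 0.93 (0.000426), hspa5 by 0.76 (0.0103) and asns by 0.72 (0.0041). The groups of pdia4, sesn2 and asns were apart as well, beside 11.2% of all genes apart in the lower direction. Without scaling factors the median of all genes was -0.23 in this comparison, and each of these 5 calls held.

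From 6 to 7 dpf in vehicle, trib3 rose again, to 104 ± 3.89 CPM (1.45-fold, adjusted p 0.000235), and atf4b1 rose 1.2-fold (0.0204), beside 7.1% of all genes higher. The call of atf4b1 was lost without vehicle replicate 3 or 4 at 6 dpf (0.0539, 0.0609) and without replicate 4 or 5 at 7 dpf (0.058, 0.0569). With the label numbers as a replicate block 6 members passed. trib3, atf4b1 and atf3 (0.0193) were higher, beside 16.8% of all genes, and pdia4 (0.00198), asns (0.00646) and hspa5 (0.0271) were lower, beside 15.7%.

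In treated animals genes fell from 2 to 4 dpf, and trib3 and hspa5 were among those that fell then and rose later. From 2 to 4 dpf, atf4b1, trib3, hspa5 and pdia3 fell, beside 29.4% of all genes, by 0.31, 0.58, 0.30 and 0.36 on the log2 scale. The label block added asns (0.00229) and pdia4 (0.00699), beside 35.4% of all genes, and without scaling factors 0 of 9 passed. From 4 to 6 dpf, trib3 rose 2.84-fold (adjusted p 0.000156) and atf3 rose 2.65-fold (0.00128), beside 19% of all genes. pdia4 fell by 1.05 on the log2 scale, asns by 0.61 and hspa5 by 0.56, beside 18.2% of all genes lower.

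From 6 to 7 dpf in hormone, 4 genes rose, beside 4.69% of all genes. atf3 rose 3.45-fold (adjusted p 0.0238), sesn2 2.91-fold (0.0288), xbp1 1.84-fold (0.0351) and hspa5 1.83-fold (0.0245). Leaving out single libraries moved the count between 0 and 8. The label block called 7, those 4 and trib3 (0.000607), atf4b1 (0.0022) and pdia3 (0.0395), beside 12.5% of all genes. Vehicle and treated courses share no library, but each shares libraries with the comparisons of treatment above.

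Over the 8 groups, mean levels of 5 genes, atf3, atf4b1, trib3, sesn2 and xbp1, were highest in treated larvae at 7 dpf. For asns, pdia4, hspa5 and pdia3 the highest mean was at 2 dpf. hspa5 in treated larvae at 7 dpf (360 ± 106 CPM) was close to its level at 2 dpf, 358 ± 45.5 CPM in vehicle and 363 ± 21.7 in hormone. Most neighbours in the order of means overlapped. Those that did not were trib3 in vehicle at 6 dpf above vehicle at 2 dpf, sesn2 in vehicle at 4 dpf above vehicle at 7 dpf, asns in treated above vehicle larvae at 6 dpf, and pdia4 in vehicle at 4 dpf above treated larvae at 7 dpf.

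Within groups, most pairs of the genes had a correlation above 0. After group means were taken out, Pearson's r of log2 CPM over the 40 libraries was above 0 in 31 of 36 pairs of members, from -0.44 for atf4b1 with pdia3 to 0.78 for hspa5 with pdia4. sesn2 had 0.66 with trib3, 0.65 with atf3 and 0.63 with xbp1. These are descriptions, since each group holds 1 shallow library and the other libraries of most groups fell into closer pairs. Their part in these correlations was not tested. The share of pairs above 0 among other genes was not measured.

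Other genes of both programmes were taken from lists by known function. The list of other integrated stress response genes held 61 names, of which 29 were in the table and all 29 were tested. 0 passed at 2 dpf and 0 at 4 dpf in edgeR, DESeq2 and voom, with 0 and 5 at an unadjusted p under 0.05. At 6 dpf 3 were higher and 2 lower (all genes 4.37% and 6.32%), and at 7 dpf 14 were higher, 3 lower and 12 did not pass (all genes 14.6% higher and 14.2% lower). The list's median log2 fold change was 0.14 at 6 dpf and 0.33 at 7 dpf.

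The smallest p-values of the list at 7 dpf included 3 risers that are ATF4 targets in mammals. mthfd2, a mitochondrial folate enzyme, had 2.34 to 3.57 CPM in vehicle (median 2.55) and 6.47 to 13.1 CPM in treated libraries (median 10.3), a rise of 3.79-fold (adjusted p 4.87e-05). psat1, phosphoserine aminotransferase, had 9.49 to 10.4 CPM against 16.5 to 52.1 CPM, a rise of 3.90-fold (0.000175). phgdh, which starts serine synthesis, had 22.8 to 28.3 CPM against 38.2 to 72.5 CPM, a rise of 2.38-fold (0.000193). In all 3 genes every treated library lay above every vehicle library, beside 8.16% of all genes. shmt2, a serine hydroxymethyltransferase gene of the same list, did not pass (log2 -0.23 ± 0.11, adjusted p 0.14). cth and slc3a2, also of that list, went the other way. cth had 79.5 to 92.2 CPM in vehicle and 60.5 to 76.5 CPM in treated libraries. slc3a2 had 125 to 148 CPM against 108 to 123 CPM. For both of these genes every treated library lay under every vehicle library, beside 9.96% of all genes apart in that direction.

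eif2ak1, an eIF2 kinase, rose by 1.72-fold (0.00107) and eif2b1, a subunit of the eIF2 exchange factor, by 1.69-fold (0.000873) at 7 dpf. eif2ak2, another eIF2 kinase, did not pass (log2 0.03 ± 0.11, 0.861). sesn1, another sestrin gene, went the other way from sesn2, from 698 to 1010 CPM in vehicle to 280 to 437 CPM in treated larvae, a fall of 1.24 on the log2 scale (0.000101). sesn3 fell by 0.48 (0.0012). The other zebrafish ATF4 gene, atf4b2, rose 1.94-fold (0.00122) and eif2ak3, which codes for PERK, 1.66-fold (0.00148). The groups of ern1, which codes for the sensor IRE1, overlapped widely, at 3.43 to 7.56 CPM in vehicle and 2.26 to 7.34 CPM in treated libraries. It too was chosen after its values were seen. Of the genes named for this list at 7 dpf, atf4b2, eif2ak3, eif2ak2, sesn3, shmt2, cth and slc3a2 were chosen after their values were seen.

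At 6 dpf psat1 rose 1.65-fold (adjusted p 0.000525), chac1, a glutathione-degrading enzyme, 1.62-fold (0.043) and eif2ak1 1.3-fold (0.0292). sesn1 fell by 0.56 (0.0301) and cbsb, a cystathionine beta-synthase gene, by 0.52 on the log2 scale (0.0103). The calls of chac1, eif2ak1 and sesn1 were lost when any of several single libraries was left out, with adjusted p-values up to 0.113, 0.0828 and 0.0713. At 4 dpf psat1 (log2 0.60) and sesn1 (-0.44) had the smallest p-values and passed only with the exon-table block (3.62e-05 and 0.0354). At 2 dpf aldh18a1 (0.12) and atf4b2 (-0.11) had the smallest, both with an adjusted p of 1.

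The list of other unfolded protein response and endoplasmic reticulum folding genes held 82 names, of which 43 were in the table and tested. 0 passed at 2 and at 4 dpf in edgeR, DESeq2 and voom, with 0 and 2 at an unadjusted p under 0.05. At 6 dpf 1 was lower, beside 6.32% of all genes. At 7 dpf 11 of the 43 were higher, beside 14.6% of all genes, 4 were lower, beside 14.2%, and 28 did not pass. In either direction 34.9% of this list was called, beside 28.8% of all genes. The list's median log2 fold change was 0.08 and 0.18 at these ages. The count at 7 dpf moved between 8 and 26 when single libraries were left out.

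Among them at 7 dpf, hyou1, an endoplasmic reticulum chaperone of the hsp70 family, had 16.4 to 42.5 CPM in vehicle (median 17.8) and 40 to 71.7 CPM in treated libraries (median 56.5). It rose 2.43-fold (adjusted p 0.00526). pdip5, which RefSeq names pdia6, rose 1.64-fold (0.00694), creb3l3l 1.51-fold (0.00249) and sec61al2, a subunit of the translocation channel, 1.45-fold (0.00696). pdia2, another disulfide isomerase, fell by 0.71 (0.00389) and cdnf, a secreted neurotrophic factor of the endoplasmic reticulum, by 0.79 on the log2 scale (0.00435).

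creb3l3, a membrane-bound factor known from mammalian liver, was the gene lower at 6 dpf, by a fall of 0.89 on the log2 scale (0.00066). Its fall at 7 dpf was 0.70 (0.00938), and manf, a relative of cdnf, rose 2.26-fold (0.0225). The values of these 2 genes at 7 dpf were chosen after they were seen, and the call of manf was lost without any 1 of 6 libraries (up to 0.0682). At 4 dpf the smallest p-values were those of pdip5 (log2 0.27, adjusted p 0.447, and 0.0109 with the exon-table block) and creb3l3 (-0.41, 0.65). At 2 dpf they were those of cdnf (-0.25) and ssr4 (0.09), both with an adjusted p of 1.

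**Figure D4:**
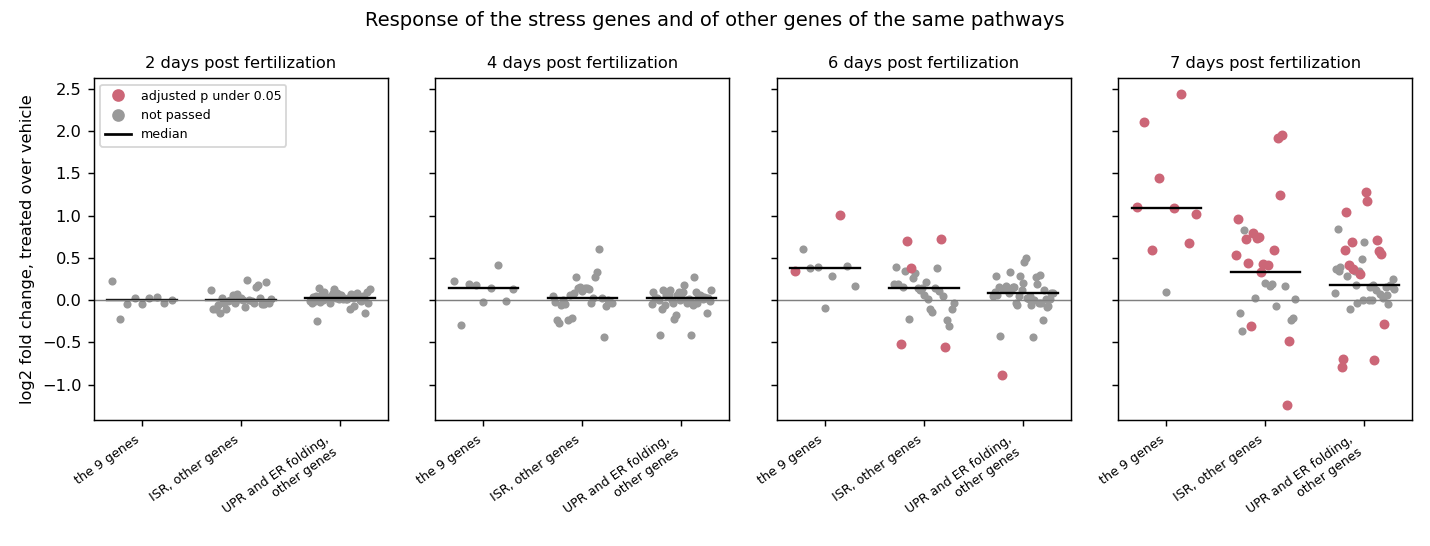
Log2 fold change of treated over vehicle at each age in dpf for the 9 genes, the other integrated stress response genes and the other unfolded protein response genes, 1 point per gene, with a bar at the median. The median of the 9 genes moves from 0 at 2 dpf to 0.14, 0.38 and 1.09, while those of the longer lists reach 0.33 and 0.18 at 7 dpf.

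Markers of tissues rich in endoplasmic reticulum moved with the treatment at the same ages. Of all genes, 14.2% were lower and 14.6% higher at 7 dpf, and 6.32% were lower and 4.37% higher at 6 dpf. Of 14 exocrine pancreas markers in the table, 11 were lower and 1 higher at 7 dpf, and their summed level was 24600 to 30900 CPM in vehicle and 7860 to 12900 CPM in treated libraries. At 6 dpf the sums were 11900 to 20000 CPM against 6030 to 13100 CPM, which overlapped, with 8 markers lower and 2 higher. Of 19 rows of liver markers, 14 were lower and 2 higher at 7 dpf, both of the latter rows of the symbol tfr2, with sums of 4110 to 4790 CPM against 2170 to 3010 CPM. At 6 dpf the liver sums were 4740 to 4940 CPM against 2560 to 3520 CPM, with 12 markers lower and 1 higher. No marker of either list was at 0 in all libraries. These sums were lower in treated larvae while 8 of the 9 genes were higher, and their part in the result was not tested. The 5 hatching gland markers in the table summed to 347 to 453 CPM at 2 dpf and 162 to 213 CPM later. The later sums came almost wholly from tfap2a and cd63. In vehicle at 7 dpf their means were 66.7 and 106 CPM, against 0.0797 for he1a, 0.00992 for he1b and 0.00133 for ctsl1b. The filter on low counts left 5, 4, 3 and 2 of the 5 markers for the test at 2, 4, 6 and 7 dpf. Those left at 7 dpf were tfap2a and cd63. 0 of the markers tested passed at each age in edgeR (0 to 1 at an unadjusted p under 0.05).

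Genes whose levels followed those of the members most closely over the 40 libraries were picked by Pearson's r of log2 CPM among 7655 genes, with no test, since age, depth and the libraries are shared. Nearest to pdia4 were prkri (0.974), dnajb11 (0.969) and hsp90b1 (0.968), and nearest to hspa5 were hyou1 (0.956), tars (0.941) and wars (0.932). RefSeq names prkri dnajc3b. For atf3 they were fosl1 (0.935), jun (0.922) and slc20a1b (0.902), and for asns tomm40l (0.945), psat1 (0.941) and cars (0.939). For trib3 they were snd1 (0.958), ctu2 (0.944) and dgcr14 (0.931). The nearest genes to sesn2, atf4b1, xbp1 and pdia3 were slc1a4 (0.916), slc39a6 (0.903), invs (0.895) and pfdn5 (0.903).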

How the data were processed

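The authors deposited raw counts per gene and per exon for 40 libraries of paired 51-base reads, per the labels. HTSeq 0.5.3p3 and CASAVA 1.4 are named in the submitters' processing notes. Scaffold names in the gene table carry the assembly name Zv9. The aligner and the use of strand in counting are not given in the sources used here. The library kit does not mark strand, so reads of overlapping antisense genes cannot be told apart.

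Each comparison was fitted on the gene counts in edgeR 4.0.16 (R 4.3.3) by its quasi-likelihood test (filterByExpr, TMM scaling, estimateDisp, robust glmQLFit, then glmQLFTest), and p-values were adjusted by Benjamini-Hochberg over all genes tested. Treated and vehicle were compared at each age, neighbouring ages within each treatment, and the response between ages in 1 fit of 40 libraries. DESeq2 1.42.0 and limma 3.58.1 (voom) were alternatives, with other scalings, filters, replicate blocks and left-out libraries. The edgeR steps were also run on simulated counts drawn independently for each library. That simulation held no closer pairs and no divergent shallow library, so it cannot address those limits.

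The 9 genes and all lists were chosen with earlier results of these data known. All 9 genes were named. Of each list of other pathway genes, up to 6 per age with the smallest p past the threshold were named (the 2 smallest where none passed). The 3 most alike genes per member needed a mean log2 CPM of at least 2.

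Same-numbered vehicle and treated libraries did not deviate together by the labels' numbers (r from -0.56 to 0.63). By the exon table's numbers, matched through equal totals of genes with at least 50 counts, they did at 2 dpf (0.39 to 0.77), 4 dpf (0.59 to 0.83) and 6 dpf (0.2 to 0.68), and not in all 5 pairs at 7 dpf (0.07 to 0.54). The same exon-table number was the best match for 3, 2, 3 and 4 of 5 libraries at 2, 4, 6 and 7 dpf. By label numbers, libraries deviated together across ages within each treatment (lowest r 0.16). The same number was the best match for 3 or 4 of 5, which does not establish the pairs. Pairs here are same-numbered libraries whose deviations from group means correlate above 0.1. No 2 libraries of a group agreed within sampling noise (chi-square per degree of freedom 21.5 to 567 over 80 pairs).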

Additional observations from a re-analysis of the deposited data

Results flagged for a closer look

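In 5 of 72 groups of 5 libraries, 1 library stood far from the other 4 by Dixon's criterion, and chance gives about 1 in 20 such groups. In vehicle larvae at 7 dpf this was replicate 1, the shallow library, for hspa5 (244 CPM against 96.4 to 111), pdia4 (30.1 against 8.8 to 11.6) and xbp1 (288 against 191 to 212). For atf3 it was the shallow treated library at 4 dpf, replicate 5, with 7.39 CPM against 12.5 to 14.1. For atf4b1 it was vehicle replicate 5 at 6 dpf, a deep library, with 389 CPM against 340 to 350. What sets these libraries apart was not tested.

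The response to hormone differed between ages, by the test of the 3 interaction terms, for sesn2 (adjusted p 1.62e-05), atf3 (0.00186), hspa5 (0.00232), xbp1 (0.00276), asns (0.0334) and atf4b1 (0.0493). Between 6 and 7 dpf alone the response differed for sesn2 (0.0383). Age and length of exposure cannot be told apart in these tests. Leaving out a replicate number moved the count of members called by the first test between 1 and 7. The sesn2 call between 6 and 7 dpf was lost in 4 of 15 alternatives.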

How the results depend on the processing

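The 8 calls at 7 dpf held under RLE, upper quartile and no scaling factors, both other filters, DESeq2, voom, both replicate blocks and 1 fit of all 40 libraries, and, beside the changes given here, each count of members stayed within 1.5 times. Replicate spread, possible shared sources of libraries and the shallow libraries may each limit these values, and their parts were not tested. The promoter motif search was not run.

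At 6 dpf the members' count of 2 became 7 with voom, 4 without scaling factors, 1 with the labels' numbers as a replicate block and 7 without the shallow libraries. The count of 5 other integrated stress response genes at 6 dpf became 9 with DESeq2, 14 with voom, 9 without scaling factors, 12 with the exon-table replicate block, 3 with the label block and 12 without the shallow libraries. The count of 1 other unfolded protein response gene at 6 dpf became 2 in 1 fit of all 40 libraries, 3 with DESeq2, 15 with voom, 3 without scaling factors, 11 with the exon-table block and 13 without the shallow libraries. At 7 dpf its count of 15 became 34 with voom, 30 without scaling factors and 33 without the shallow libraries. At 4 dpf the exon-table block turned counts of 0 into 4 members, 5 and 2 list genes.

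With age, the vehicle count from 2 to 4 dpf became 2 without scaling factors, and the treated count became 0 without scaling factors and 2 without the shallow libraries. From 4 to 6 dpf the treated count was 8 with voom. From 6 to 7 dpf the vehicle count was 4 with voom, 1 without scaling factors, 6 with the label block as pairing and 4 without the shallow libraries, and the treated count was 8 with DESeq2, 9 with voom, 7 with the label block and 9 without the shallow libraries. The 1 member whose response at 7 dpf exceeded that at 6 dpf became 8 with voom, 6 without the shallow libraries, 2 with DESeq2, 2 without scaling factors and 3 with the exon-table block (xbp1, 0.0197, and hspa5, 0.0283, besides sesn2), although those numbers did not pair all libraries at 7 dpf. Leaving out a replicate number moved it between 0 and 3. The blocks changed no other count of members by over 1.5 times.

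Sign changes were in values that were not called in the reported comparison. On the log2 scale, pdia3 at 2 dpf was 0.04 and trib3 at 4 dpf 0.05 with voom, pdia3 at 6 dpf was 0.03 without scaling factors, and sesn2 at 2 dpf was -0.01 without the shallow libraries. From 2 to 4 dpf without scaling factors, atf3 was 0.15 in vehicle and 0.02, sesn2 0.11 and xbp1 0.04 in hormone. In vehicle, atf4b1 from 4 to 6 dpf was -0.18 without scaling factors. xbp1 from 6 to 7 dpf was -0.04 with voom, -0.07 without scaling factors, -0.02 with upper quartile factors and -0.03 without the shallow libraries.

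Leaving out 1 library at a time moved the counts between 1 and 5 (members, 6 dpf), 2 and 10 (integrated stress response list, 6 dpf), 1 and 10 (unfolded protein response list, 6 dpf), 8 and 26 (the same list, 7 dpf), 1 and 4 (vehicle, 6 to 7 dpf) and 0 and 8 (treated, 6 to 7 dpf). Leaving out a replicate number moved the count of responses that differ between ages between 1 and 7. Uncalled log2 values at 2 dpf ran from -0.41 to 0.04 for atf3, -0.09 to 0.02 for atf4b1, -0.18 to 0.06 for trib3, -0.02 to 0.11 for sesn2, -0.05 to 0.05 for xbp1, -0.04 to 0.08 for hspa5, -0.08 to 0.19 for pdia4 and -0.11 to 0 for pdia3. At 4 dpf they ran from -0.08 to 0.09 for trib3 and -0.07 to 0.03 for pdia3. With age they ran from -0.30 to 0.20 (atf3, vehicle 2 to 4 dpf), -0.12 to 0 (sesn2, treated 2 to 4 dpf), -0.01 to 0.09 (atf4b1, vehicle 4 to 6 dpf), -0.11 to 0.08 (xbp1, vehicle 6 to 7 dpf) and -0.52 to 0.06 (hspa5, vehicle 6 to 7 dpf). The cause of these changes was not tested.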
